A study of Mus musculus with 2 samples.

Results

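A group of satellite glial cells (SGCs) of the adult mouse dorsal root ganglion (DRG) was examined that lay at 1 end of a ranking by marker genes, where UMIs of *Slc35f1*, *Kcnh8*, *Lrrc4c*, *Ncam2* and *Lgr5* were most frequent relative to those of *Acsbg1*, *Cnmd*, *Hes5*, *Aldoc* and *Fads2*. A UMI, or unique molecular identifier, marks 1 captured transcript. The group held 1911 cells, 953 in replicate 1 and 958 in replicate 2, of 5735 SGCs and of 16346 cells in all. A barcode was taken as a cell when it had over 300 detected genes, at least 2000 UMIs and at most 22% of its UMIs from mitochondrial genes. It was taken as an SGC when *Fabp7*, the fatty acid binding protein that marks these cells, reached 50 UMIs per 10000 and when *Ncmap*, *Scn7a*, *Col1a1*, *Rgs5*, *C1qa* and *Flt1*, markers of the Schwann cells, fibroblasts, mural cells, macrophages and endothelial cells of the ganglion, had at most 2 UMIs each. In each replicate the SGCs were ranked by the summed UMIs of *Acsbg1*, *Cnmd*, *Hes5*, *Aldoc* and *Fads2* plus 1, divided by the summed UMIs of *Slc35f1*, *Kcnh8*, *Lrrc4c*, *Ncam2* and *Lgr5* plus 1, and split into 3 groups of equal size. They are called low-ratio, mid-ratio and high-ratio SGCs here, and the low-ratio SGCs are the subject. Measured values of these genes thus chose the cells, so the 10 ranking genes, *Fabp7* and the 6 excluded markers are described without a test and enter no count.

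The cells came from dissociated L4 and L5 DRGs of naive C57BL/6 female mice aged 3 months, with no transgene, injury or treatment named, and were sorted as live cells before capture with the 10x Chromium system. The data comprise 2 samples of this single condition, replicates 1 and 2, with 119101743 and 128668771 UMIs. Groups of cells were therefore compared across the same 2 samples. The samples are biological replicates by the study's account, with the number of animals in each not given, so that a p-value here measures how well a difference repeated in 2 samples whose spread may be partly technical. The replicates shared 3 barcode sequences among SGCs, 1 of them low-ratio in both.

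SGCs form a tight envelope around the cell body of each sensory neuron. They buffer potassium and glutamate at the neuron's surface, are coupled to each other through gap junctions, make cholesterol and other lipids, and share a neural crest origin with the Schwann cells of the nerve. *Slc35f1* belongs to a family of solute carriers, *Kcnh8* encodes a voltage-gated potassium channel, *Lrrc4c* and *Ncam2* encode adhesion proteins, and *Lgr5* encodes a receptor for R-spondins, which amplify Wnt signalling.

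The ranking genes differed between the groups by construction, and their levels describe the selection only. In summed UMIs the difference was larger on the *Acsbg1* side of the ratio than on the *Lgr5* side. *Lgr5* stood at 384 and 376 CPM (UMIs per 1000000, scaled between groups by the TMM method) in the low-ratio SGCs of replicates 1 and 2, at 278 and 276 CPM in mid-ratio and at 198 and 203 CPM in high-ratio SGCs. *Kcnh8* stood at 471 and 455 CPM in low-ratio against 281 and 271 CPM in high-ratio SGCs, and *Slc35f1* at 1795 and 1695 against 1085 and 1108 CPM. On the other side of the ratio, *Acsbg1*, an acyl-CoA synthetase, stood at 194 and 226 against 601 and 659 CPM, and the Notch effector *Hes5* at 20.3 and 36.6 against 171 and 354 CPM, higher in replicate 2 in either group. Per 10000 UMIs, the median low-ratio cell had 56.5 and 56.4 UMIs of the *Slc35f1*, *Kcnh8*, *Lrrc4c*, *Ncam2* and *Lgr5* group and 7.52 and 8.81 of the *Acsbg1* group, and the median high-ratio cell had 32.4 and 33 of the first and 20.9 and 23.4 of the second. All 5 genes of the *Lgr5* side were detected together in 79.6 and 82.4% of low-ratio SGCs and in 77.2 and 76% of high-ratio SGCs, which were sequenced deeper, so these genes were present in SGCs of every group. With each cell thinned to 2000 UMIs, *Lgr5* was detected in 46 and 44.3% of low-ratio SGCs, in 29.9 and 28.6% of high-ratio SGCs, and in 0.599 and 1.69% of the 167 and 177 endothelial cells, which had median depths of 15462 and 17486 UMIs. *Lgr5* is part of the ratio, so the gap between the groups was built in. Without thinning the shares were 89.6 and 90.5% in low-ratio and 85.3 and 83% in high-ratio SGCs.

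The groups were ranges of a continuous ratio. The boundary between low-ratio and mid-ratio SGCs lay at 0.241 in replicate 1 and 0.265 in replicate 2. The 50 cells just inside it had median ratios of 0.237 and 0.261, the 50 just outside 0.244 and 0.270, and 112 and 130 cells inside and 132 and 134 outside lay within 10% of it. When the SGCs of each replicate were divided along the ranking into 10 bins, genes outside the rule changed gradually. In replicates 1 and 2, *Kcna1* stood at 189 and 189 CPM in the lowest bin and at 14.7 and 21.3 CPM in the highest. *Mt3* went the other way, with 97 and 103 CPM in the lowest and 829 and 929 CPM in the highest. No step was seen at the boundary of the low-ratio group in the plot of these genes along the ranking.

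**Figure D1:**
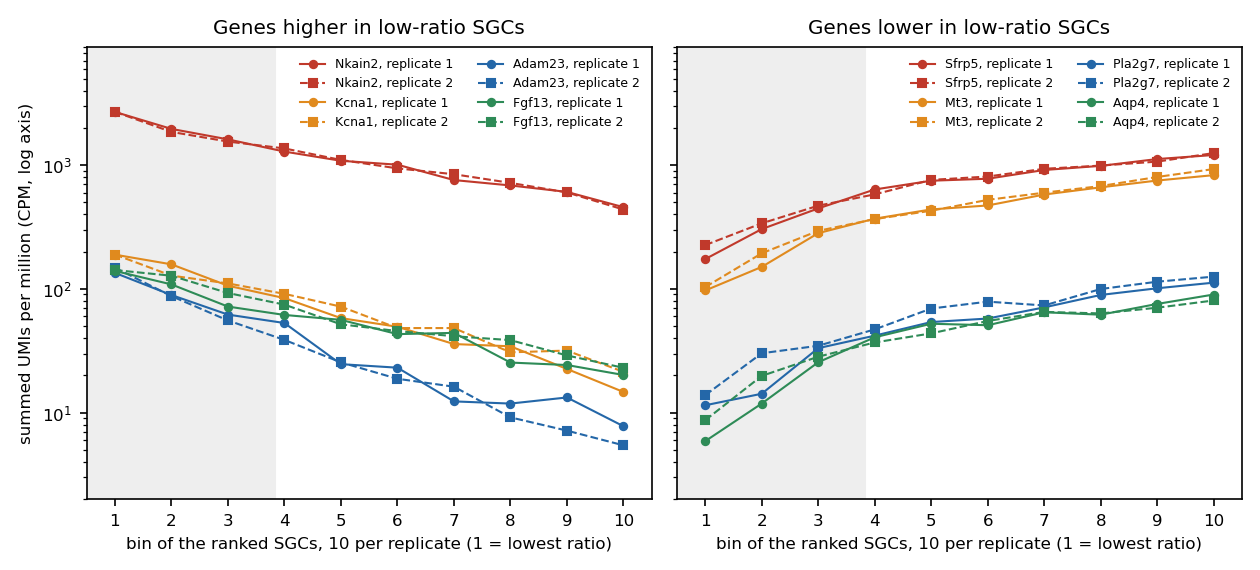
Summed UMIs of 8 genes outside the rule, in CPM on a log axis, over 10 equal bins of the ranked SGCs of each replicate (286 to 288 cells per bin), with the low-ratio group shaded. Nkain2, Kcna1, Adam23 and Fgf13 fall and Sfrp5, Mt3, Pla2g7 and Aqp4 rise along the ranking in both replicates, without a step.

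Low-ratio SGCs also differed in measures of depth and RNA content. Their median depth was 12331 and 13219.5 UMIs against 17440 and 18247 in high-ratio SGCs, and their median number of detected genes 3867 and 4075 against 4574 and 4748. Mitochondrial genes gave a median 7.86 and 7.38% of their UMIs against 9.3 and 8.7%, and *Malat1*, a nuclear RNA, gave 5.67 and 5.31% against 3.92 and 3.85%. Genes longer than 100 kb gave 20 and 20.3% against 16.1 and 16.4%, and *Fabp7*, which the gate used, stood at 87.4 and 88.9 against 125 and 129.6 UMIs per 10000. Each comparison below was repeated with the SGCs ranked within 5 bins of UMI total, mitochondrial share, *Malat1* share or long-gene share, which evens out that measure between the groups, and those counts stand beside the lists they changed most. Beyond these values the part of these measures in the results was not tested.

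To find what else distinguishes low-ratio SGCs, UMIs were summed per replicate and group, and the 6 profiles, of 13028797 to 17394442 UMIs, were compared with edgeR. A gene was called when its adjusted p was under 0.05 and the difference at least 1.5-fold. Of 13031 genes tested, 677 were called higher (5.2%) and 665 lower (5.1%) in low-ratio than in high-ratio SGCs, and 4772 (36.6%) passed the adjusted p alone. The counts of every list below are to be read beside these shares over all genes. The log2 difference over all genes had a median of 0.01, with 5% of genes under -0.66 and 5% over 0.70. Higher calls were 50.4% of all calls, and 63.7% when profiles were scaled by their totals alone. Because the cells were chosen on genes of the same profiles, a call says that a gene moved with the ranking genes in the joint fit of both samples. The same direction in each sample was not required for a call.

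The 15 genes with the largest fold in each direction were picked among called genes with a mean of at least 50 CPM in the group where they were higher, so they had to differ, and their counts and medians below describe them only. Those higher included *Adam23*, *Ank3*, *Kcna1*, *Nkain2* and *Fgf13*. *Adam23*, a membrane protein of synaptic adhesion without protease activity, stood at 88.7 and 85.2 CPM in low-ratio SGCs of replicates 1 and 2 and at 11.5 and 8.06 CPM in high-ratio SGCs, a log2 difference of 3.15 ± 0.11 (SE; adjusted p = 7.72e-08). *Ank3*, ankyrin G, which anchors sodium channels in axons, stood at 109 and 88.7 against 14.4 and 13.7 CPM, with a log2 difference of 2.81 ± 0.14 (adjusted p = 3.89e-07). *Kcna1*, a voltage-gated potassium channel, stood at 140.0 and 132 against 26.5 and 31.1 CPM, with a log2 difference of 2.24 ± 0.08 (adjusted p = 7.72e-08). In all these genes both low-ratio values lay above both high-ratio values, with the mid-ratio SGCs between them. *Nkain2*, a partner of the sodium pump, went from 614 and 624 CPM in high-ratio to 1943 and 1858 CPM in low-ratio SGCs, and its log2 difference of 1.62 ± 0.04 had the lowest adjusted p of the 15 (6.14e-09). *Fgf13*, an intracellular FGF relative that binds sodium channels, differed by 1.86 ± 0.09 on the log2 scale.

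The other 10 of the 15 are given next. The collagen chains *Col3a1* and *Col6a3* differed by 1.95 and 1.60 on the log2 scale, the axon guidance ligand *Sema3e* by 1.61 and the growth factor *Pdgfc* by 1.44. *Atf3*, a transcription factor induced by stress and injury, stood at 83.6 and 87.2 against 25.7 and 26.4 CPM and *Klf4*, a zinc finger transcription factor, at 61.8 and 51.7 against 18.5 and 15.9 CPM. *Ppp2r2b*, a subunit of protein phosphatase 2A, *Tmem117*, and *Elmo1*, an adaptor of engulfment and Rac signalling, differed by 1.85, 1.82 and 1.41. The imprinted long RNA *Meg3* was the least even of these genes, at 41.9 and 87.5 CPM in the low-ratio SGCs of replicates 1 and 2 against 17.7 and 20.6 CPM, with a log2 difference of 1.76 ± 0.28 (adjusted p = 0.000655). After thinning to 2000 UMIs, *Adam23* was detected in 16.6% (95% CI 14.3% to 19.1%) and 17.7% (95% CI 15.4% to 20.3%) of low-ratio SGCs and in 2.62% (95% CI 1.7% to 3.85%) and 1.67% (95% CI 0.958% to 2.7%) of high-ratio SGCs, against 0.599 and 0% of the endothelial cells named above. The intervals are exact binomial intervals and cover counting error only. Unthinned shares were 49.1 and 47.9% in low-ratio and 11.9 and 10.4% in high-ratio SGCs. The 5% of low-ratio cells with the most *Ank3* held 39.6 and 36.2% of its UMIs, and those with the most *Adam23* and *Kcna1* held, in this order, 29.7 and 31.5% and 23.5 and 22.6%.

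**Figure D2:**
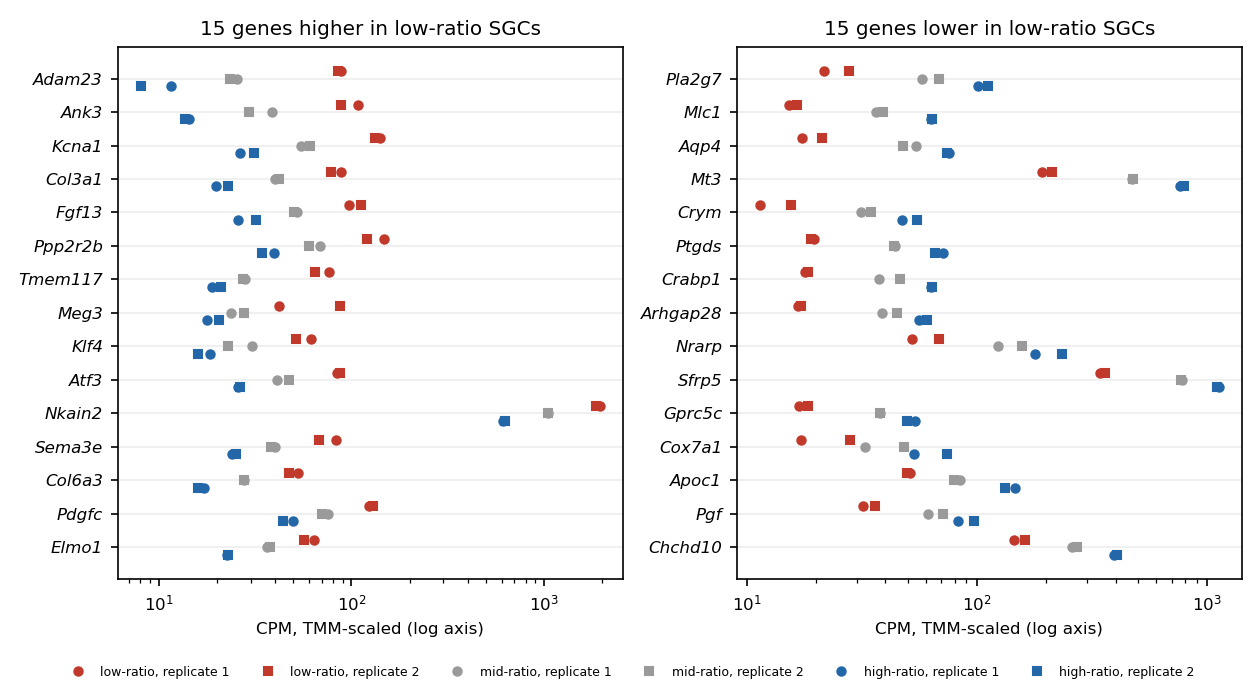
Level of the 15 genes with the largest fold higher (left) and the 15 with the largest fold lower (right) in low-ratio SGCs, in TMM-scaled CPM on a log axis, 1 point per replicate for low-ratio, mid-ratio and high-ratio SGCs. For each gene the low-ratio and high-ratio points do not overlap and the mid-ratio points lie between them.

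The 15 genes with the largest fold lower included *Pla2g7*, *Mlc1*, *Aqp4* and *Mt3*. *Mlc1*, an astrocyte membrane protein, stood at 15.2 and 16.5 CPM in low-ratio and 63.1 and 63.4 CPM in high-ratio SGCs, a log2 difference of -1.99 ± 0.07 (adjusted p = 7.72e-08). The water channel *Aqp4* stood at 17.4 and 21.2 against 75.9 and 73.8 CPM, with a log2 difference of -1.95 ± 0.09 (adjusted p = 2.84e-07). *Mt3*, a metallothionein of neural tissue, stood at 191 and 212 against 761 and 795 CPM, with a log2 difference of -1.95 ± 0.05 (adjusted p = 1.59e-08). All 3 genes were present in both groups at levels that did not overlap. *Pla2g7*, which inactivates platelet-activating factor, had the largest difference of the 15, with 21.6 and 27.7 against 101 and 111 CPM and a log2 difference of -2.10 ± 0.11 (adjusted p = 5.62e-07). *Sfrp5*, a secreted Wnt antagonist, stood at 343 and 361 against 1126 and 1107 CPM, and *Nrarp*, a target and inhibitor of Notch signalling, at 52.1 and 68.5 against 179 and 234 CPM.

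The thyroid hormone binding protein *Crym*, the retinoic acid binding protein *Crabp1* and the prostaglandin synthase *Ptgds* differed by -1.91, -1.80 and -1.83 on the log2 scale. *Apoc1*, an apolipoprotein, *Pgf*, a growth factor of the VEGF family, and *Gprc5c*, an orphan receptor, differed by -1.47, -1.40 and -1.55. The mitochondrial proteins *Cox7a1* and *Chchd10* differed by -1.49 and -1.39, and *Arhgap28*, a GTPase-activating protein, by -1.78. *Mt3* was detected after thinning in 21.8% (95% CI 19.2% to 24.6%) and 24.5% (95% CI 21.8% to 27.4%) of low-ratio SGCs and in 65.3% (95% CI 62.1% to 68.3%) and 68.8% (95% CI 65.7% to 71.7%) of high-ratio SGCs, against 1.2 and 5.65% of endothelial cells. Its unthinned shares were 63.6 and 68.7% in low-ratio and 95.5 and 94.4% in high-ratio SGCs. Low-ratio SGCs were the shallowest, and within bins of UMI total the fold of 11 of the 30 genes was smaller by over 1.5 times. Among the higher genes these were *Ank3* (log2 1.66), *Adam23* (2.20) and *Kcna1* (1.60). Among the lower genes they were *Pla2g7* (-1.39), *Mt3* (-1.30), *Crym* (-1.26), *Aqp4* (-1.25), *Ptgds* (-1.22), *Nrarp* (-1.17), *Arhgap28* (-0.97) and *Gprc5c* (-0.93).

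The 2 sets were set beside 6 other classes of cells in the same samples, each gated on 1 of the excluded markers. Of the 15 higher genes, 14 (all but *Pdgfc*) had a higher CPM in at least 1 of these classes than in low-ratio SGCs in both replicates. The class with the highest level was read from replicate 1 alone. In replicate 1 it was the *Scn7a*-gated cells for 6 of the 14 and the *Ncmap*-gated myelinating Schwann cells for 4. Over all genes tested, these 2 classes were highest in replicate 1 for 2842 and 1544 of the 11165 genes that were higher in some class. Among all genes called higher they were highest in replicate 1 for 123 and 142 of 566. The *Scn7a*-gated cells also summed 15691 and 12912 CPM of neuron markers. Of the 15 lower genes, 5 (*Pla2g7*, *Mt3*, *Arhgap28*, *Gprc5c* and *Pgf*) were higher in another class than in high-ratio SGCs. Over all genes tested, 85.7% were higher in some class than in low-ratio SGCs and 85.4% than in high-ratio SGCs. RNA of barcodes without cells held more of 7 of the 15 higher genes (*Ank3*, *Col3a1*, *Fgf13*, *Meg3*, *Klf4*, *Atf3* and *Elmo1*) than low-ratio SGCs did, and more of 0 of the 15 lower genes than high-ratio SGCs. Over all genes tested, 52.9% were higher in such RNA than in low-ratio SGCs and 57.8% than in high-ratio SGCs. The estimated share of such RNA was 3.53 and 3.61% in low-ratio and 4.19 and 4.39% in high-ratio profiles, and with it subtracted all 15 higher genes were called, *Ank3* at a log2 difference of 3.68 and *Meg3* at 3.28.

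Of 22 genes of cholesterol synthesis tested, 17 were called lower and 0 higher, where 5.1% of all genes were called lower, and the median log2 difference was -0.76 against 0.01 over all genes. *Hmgcs1*, which makes the precursor of mevalonate, stood at 1192 and 1360.0 CPM in low-ratio and 2060.4 and 2154 CPM in high-ratio SGCs, a log2 difference of -0.72 ± 0.06 (adjusted p = 6.85e-06). *Tm7sf2*, a sterol reductase, stood at 62.8 and 68.3 against 169 and 170.0 CPM with a log2 difference of -1.37 ± 0.05 (adjusted p = 9.95e-08), and *Mvd*, of the mevalonate pathway, differed by -1.10 ± 0.06 (adjusted p = 4.68e-07). Low-ratio values lay below high-ratio values in both replicates for these genes. The other 5 genes of the list were not called, among them *Fdft1*, *Insig1* and *Srebf2*. The count fell with the measures above: 5 genes were called lower with SGCs ranked within bins of UMI total (median -0.53), 7 within bins of long-gene share (-0.53), 4 with cells thinned to 2000 UMIs before ranking (-0.49) and 6 among SGCs of at least 100 UMIs of *Fabp7* per 10000 (-0.53). Over all genes, 298, 493, 287 and 330 were called lower in these fits, against 665. *Hmgcs1* was not called in any of the 4, at log2 differences from -0.55 to -0.43. With the *Lgr5* side of the ratio ranking alone, 0 of the 22 were called by edgeR, where 128 of all genes were called lower. Of 19 genes of fatty acid synthesis and oxidation, 0 were called higher and 2 lower, *Acsl6* (log2 -0.90) and *Acly* (log2 -0.73), and the most abundant, *Dbi*, stood at 10522 and 10102 against 11118 and 10413 CPM. Neither *Acsl6* nor *Acly* was called within bins of *Malat1* share, nor *Acly* within bins of UMI total. The ranking genes *Acsbg1*, an acyl-CoA synthetase, and *Fads2* are lipid genes too and are in neither list.

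The 250 bases upstream of the start are shown for the 3 cholesterol genes with the largest difference among those with a promoter in the reference used (RefSeq, GRCm38.p6), and for *Hmgcs1*, the most abundant of the list. *Tm7sf2* lies at chr19:6067851-6068100 on the minus strand, *Mvd* at chr8:122443423-122443672 on the minus strand, *Lss* at chr10:76531355-76531604 on the plus strand and *Hmgcs1* at chr13:119690101-119690350 on the plus strand. Each is written 5′ to 3′ along its gene. Capitals mark CCAAT on either strand, so that ATTGG is a match on the other strand, and TCACNCCAC, a form of the sterol regulatory element that SREBP factors bind.
Tm7sf2: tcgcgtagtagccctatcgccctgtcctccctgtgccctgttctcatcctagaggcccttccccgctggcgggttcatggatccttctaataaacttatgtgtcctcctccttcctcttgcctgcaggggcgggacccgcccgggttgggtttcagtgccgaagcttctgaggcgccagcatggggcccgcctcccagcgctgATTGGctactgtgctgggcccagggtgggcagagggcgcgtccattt
Mvd: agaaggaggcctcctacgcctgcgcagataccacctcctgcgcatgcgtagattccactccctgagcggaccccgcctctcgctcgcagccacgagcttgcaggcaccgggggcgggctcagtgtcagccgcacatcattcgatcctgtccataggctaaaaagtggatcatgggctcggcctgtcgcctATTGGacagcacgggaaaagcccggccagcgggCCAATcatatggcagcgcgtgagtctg
Lss: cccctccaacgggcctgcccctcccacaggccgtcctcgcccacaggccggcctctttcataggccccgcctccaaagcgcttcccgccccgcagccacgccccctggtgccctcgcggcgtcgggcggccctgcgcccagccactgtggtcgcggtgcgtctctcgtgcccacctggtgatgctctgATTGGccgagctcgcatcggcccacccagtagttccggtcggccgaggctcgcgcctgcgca
Hmgcs1: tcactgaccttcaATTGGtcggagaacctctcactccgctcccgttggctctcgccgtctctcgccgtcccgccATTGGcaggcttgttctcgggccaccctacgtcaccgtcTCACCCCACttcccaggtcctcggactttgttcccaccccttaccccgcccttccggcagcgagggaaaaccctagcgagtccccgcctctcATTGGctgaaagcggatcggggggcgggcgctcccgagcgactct
CCAAT, the box bound by the factor NF-Y, was found in these 250 bases in 16 of the 16 cholesterol genes with an entry (100%) and in 10133 of 27025 genes of the reference (37.5%). TCACNCCAC was found in 1 of the 16, *Hmgcs1*, and in 331 of 27025 genes (1.22%). The matches of the 2 motifs do not overlap in the sequences shown. These are matches of letters, and binding was not measured.

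Of 15 general markers of SGCs, 4 were called lower in low-ratio SGCs, 1 higher and 10 were not called, with a median log2 difference of -0.16. Glutamine synthetase (*Glul*), which converts glutamate to glutamine, stood at 234 and 234 CPM in low-ratio and 560.1 and 559 CPM in high-ratio SGCs, a log2 difference of -1.26 ± 0.04 (adjusted p = 5.95e-08). *Fbln5* and *Bcan*, proteins of the extracellular matrix, differed by -0.93 and -0.69, and the lipid carrier *Apoe* by -0.66. *Cdh19*, a cadherin of Schwann cell precursors and glia, was the gene called higher, at 1215 and 1095 against 520.2 and 435 CPM and a log2 difference of 1.27 ± 0.09 (adjusted p = 3.57e-06). The potassium channel *Kcnj10* stood at 208 and 198 against 254 and 248 CPM (log2 -0.31) and the connexin *Gja1* at 146 and 135 against 206 and 191 CPM (log2 -0.50), both under 1.5-fold. *Bcan* and *Apoe* were not called within bins of UMI total, *Malat1* share or long-gene share.

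Of 15 Notch signalling genes tested of 19, 0 were called higher, 5 lower and 10 were not called, with a median of -0.24. Beside *Nrarp* these were the receptor *Notch3* (log2 -1.52), the glycosyltransferase *Lfng* (log2 -1.24), the effector *Heyl* (log2 -1.08) and the ligand *Jag1*, at 145 and 152 against 223 and 234 CPM (log2 -0.62 ± 0.05, adjusted p = 5.5e-06). *Jag1* lay at the 1.5-fold limit and lost its call under 8 alternatives, with a log2 difference of -0.42 within bins of UMI total. *Maml2*, a coactivator and the most abundant member in low-ratio SGCs, stood at 357 and 331 against 291 and 277 CPM, higher in low-ratio SGCs by under 1.5-fold. *Notch3* is also a marker of mural cells, whose summed markers were lower in low-ratio SGCs (25.9 and 30.5 against 66.2 and 76.8 CPM), and it was not called with cells thinned before the sum (log2 -1.10). The ranking gene *Hes5* belongs to the same pathway and was left out of this list.

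Genes of R-spondin and Wnt signalling, the pathway of the ranking gene *Lgr5*, differed in both directions. Of 26 tested of 34, 4 were called higher and 6 lower, with a median of -0.23. *Rspo1*, an R-spondin ligand, stood at 8.97 and 10.2 CPM in low-ratio and 47.7 and 49.4 CPM in high-ratio SGCs, a log2 difference of -2.34 ± 0.10 (adjusted p = 2.28e-07). *Nkd1*, a feedback inhibitor and target of Wnt signalling, stood at 5.96 and 4.64 against 0.609 and 0.53 CPM, a log2 difference of 3.20 ± 0.32 (adjusted p = 3.49e-05). Within bins of UMI total *Rspo1* was at -1.70 and *Nkd1* at 2.56. *Nkd1* was at 2.43 without cells that had UMIs of *Pou3f1*, and at 0.63 and not called with the *Lgr5* side ranking alone. *Axin2*, another target, differed by 0.71 at 13.4 and 12.7 against 7.86 and 8.06 CPM, and *Dkk3*, a secreted glycoprotein related to Wnt antagonists, by 0.90. The most abundant member in low-ratio SGCs was *Lgr4*, a receptor related to *Lgr5*, at 732 and 737 against 592 and 582 CPM (log2 0.32). Within bins of UMI total 4 were called higher and 2 lower, where 414 of all genes were called higher and 298 lower. *Axin2* was not called within bins of long-gene share.

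Of 18 potassium channel genes tested of 28, 8 were called higher and 3 lower, where 5.2% of all genes were called higher and 5.1% lower. The median was 0.32. The ranking gene *Kcnh8* also encodes a potassium channel and is not in this list. *Kcnq5*, an M-current channel, had the largest difference at a low level, 13.7 and 14.9 against 1.34 and 0.765 CPM, with a log2 difference of 3.76 ± 0.25 (adjusted p = 2.01e-06). The leak channel *Kcnk13* stood at 33.6 and 31.7 against 6.83 and 6.12 CPM (log2 2.33) and *Kcna6* at 145 and 143 against 64.1 and 55.9 CPM (log2 1.26). Among the channels called lower were the calcium-activated *Kcnma1* (log2 -1.21) and *Kcnn4*, the most abundant of the list over all SGCs, at 130.2 and 129 against 215 and 212 CPM (log2 -0.72). Within bins of long-gene share 5 channels were called higher and 2 lower, where 342 of all genes were called higher and 493 lower. *Kcnq5* had a log2 difference of 2.41 there. *Kcnma1* was not called by DESeq2 or within bins of UMI total (-0.66) or mitochondrial share, and *Kcnn4* was not called within bins of UMI total, *Malat1* share or long-gene share (-0.40). Of 5 gap junction genes tested of 9, 3 were called higher and 1 lower, with a median of 1.23. *Gjc3*, a glial connexin, stood at 213 and 175 against 89.2 and 75.7 CPM (log2 1.23 ± 0.10, adjusted p = 7.45e-06), and the connexins *Gjb1* and *Gjb2* differed by 2.07 and -0.85 at levels under 10 CPM, with *Gjb2* not called by DESeq2 or within bins of UMI total. *Gja1*, a connexin kept in the list of SGC markers, was called lower with SGCs of over 2 UMIs of neuron markers left out (log2 -0.59) and with the *Acsbg1* side ranking alone (log2 -0.61).

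**Figure D3:**
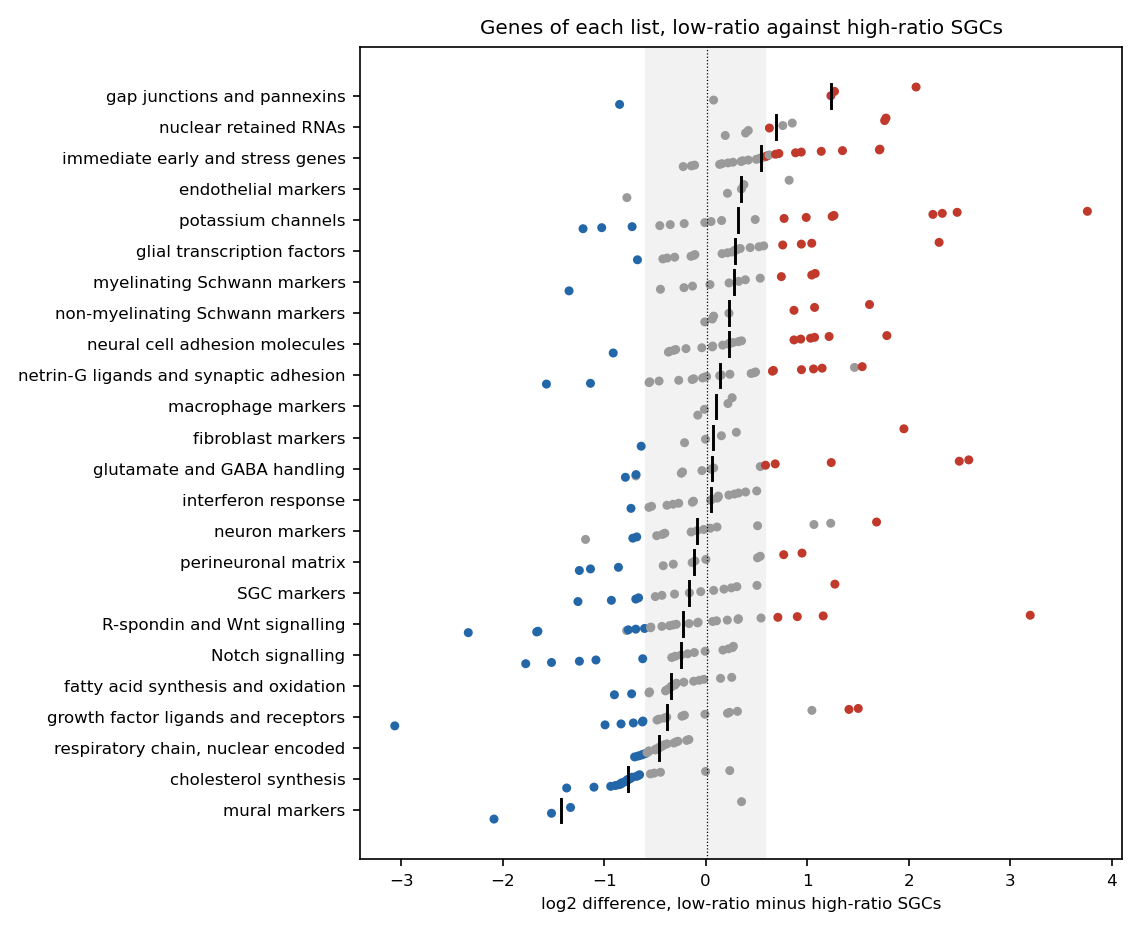
Log2 difference between low-ratio and high-ratio SGCs for each tested gene of 24 lists (points), with the median of each list as a black bar and the median over all genes as a dotted line. Red and blue points are genes called higher and lower, grey points were not called, and the shaded band is under 1.5-fold. List medians run from -1.42 (mural markers, 4 genes tested) and -0.76 (cholesterol synthesis) to 0.69 (nuclear retained RNAs) and 1.23 (gap junctions, 5 genes tested). The connexin Gja1 is shown among the SGC markers and not in the gap junction list.

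Adhesion genes differed gene by gene. The ranking genes *Lrrc4c* and *Ncam2* also encode adhesion proteins and are not in the lists below. Of 24 tested of 26 genes of netrin-G ligands and synaptic adhesion, 6 were called higher and 2 lower, with a median of 0.15. *Adgrl3*, a latrophilin and the most abundant of them, stood at 1677 and 1695 against 1054 and 1068 CPM (log2 0.67), *Tenm3*, a teneurin, at 974 and 915 against 491 and 491 CPM (log2 0.94), and *Lrrtm2* differed by 1.54 at levels under 10 CPM. The neurexin *Nrxn2* was among the genes called lower, at 5.96 and 6.07 against 19.8 and 15.9 CPM (adjusted p = 1.26e-05). Of 21 tested of 25 neural cell adhesion molecules, 6 were called higher and 1 lower, with a median of 0.23. *Negr1* and *Opcml*, both of the IgLON family, differed by 1.22 and 1.79, and *Ntm* of the same family differed by -0.91. *Ntm* was at 0.24 with the *Lgr5* side of the ratio ranking alone and was not called within bins of UMI total (-0.49), and *Adgrl3* was not called within bins of *Malat1* share or long-gene share (0.29). *Chl1*, a relative of L1, stood at 579 and 521 against 322 and 279.8 CPM (log2 0.87), and *Ncam1*, the most abundant of the list over all SGCs, at 1518 and 1477 against 1459 and 1403 CPM.

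Of 14 genes of glutamate and GABA handling tested of 19, 5 were called higher and 2 lower, with a median of 0.07. Those higher included the receptors *Grik2*, *Gria2*, *Gria4* and *Grm7*, and those lower were the transporters *Slc1a2* and *Slc6a11*. *Grik2*, a kainate receptor subunit, stood at 1283 and 1370.1 CPM in low-ratio and 539.8 and 585 CPM in high-ratio SGCs, a log2 difference of 1.24 ± 0.05 (adjusted p = 1.33e-07). The AMPA receptor subunit *Gria4* differed by 0.59, near the 1.5-fold limit, and the glial glutamate transporter *Slc1a2* by -0.79, at 12.9 and 13.5 against 21.2 and 24.5 CPM. *Gria4* lost its call under 11 alternatives. *Slc1a2* was not called within bins of UMI total (-0.40) or *Malat1* share (-0.44) or with cells thinned before the sum, and was at 0.18 with the *Lgr5* side ranking alone. *Grm7*, a metabotropic receptor, had the largest difference of the list, 2.59, from 32 and 190 UMIs in low-ratio SGCs against 12 and 31. Without replicate 2 its log2 difference was 1.64, and without the cells of very high UMIs, of which 2 and 3 were low-ratio SGCs, it was 0.73 and not called. Within bins of long-gene share 2 genes of the list were called higher and 4 lower, where 342 of all genes were called higher and 493 lower.

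Of 19 tested of 28 growth factors and their receptors, 2 were called higher and 6 lower, with a median of -0.38. *Ntrk2*, the receptor of BDNF and the most abundant of them, stood at 466 and 476 against 760.4 and 782 CPM (log2 -0.71 ± 0.04, adjusted p = 6.83e-07), and *Vegfa*, the vascular growth factor, at 69.8 and 72.4 against 136 and 147 CPM (log2 -0.99). *Fgfr3* was almost absent from low-ratio SGCs, with 4 and 3 UMIs against 32 and 40 (log2 -3.06, and -2.46 without replicate 2). Its log2 difference was -1.99 within bins of UMI total, -1.80 with the stricter *Fabp7* gate and -1.57 within bins of *Malat1* share. *Gfra1*, a receptor for GDNF, was called higher at 40.5 and 33.9 against 14 and 12.2 CPM (adjusted p = 3.36e-06). Within bins of UMI total 2 genes of the list were called lower, without *Ntrk2* (-0.50), where 298 of all genes were called lower. *Vegfa* was not called with the stricter *Fabp7* gate (-0.51). Of 12 tested of 17 perineuronal matrix genes, 2 were called higher, *Cspg4* (log2 0.95) and the laminin chain *Lama2* (log2 0.77), and 3 lower, among them the link protein *Hapln1* (log2 -1.24) and the proteoglycan *Cspg5* (log2 -0.86), with a median of -0.12. *Cspg5* was not called within bins of *Malat1* share (-0.22) or UMI total (-0.42), *Lama2* within bins of *Malat1* share or long-gene share (0.38), or *Cspg4* with cells thinned before the sum (0.58).

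Transcription factors of glia included *Pou3f1*, a factor of Schwann cells before myelination. Of 21 tested of 24, 4 were called higher and 1 lower, with a median of 0.29. *Pou3f1* stood at 28.5 and 29.1 CPM in low-ratio, 9.64 and 17.2 CPM in mid-ratio and 6.4 and 5.3 CPM in high-ratio SGCs, a log2 difference from high-ratio SGCs of 2.30 ± 0.22 (adjusted p = 2.55e-05). The log2 difference of *Pou3f1* was 1.41 within bins of long-gene share and 1.61 with the stricter *Fabp7* gate. With the *Lgr5* side ranking alone it was -0.32 and not called. Its UMIs were found in 16.8 and 16.3% of low-ratio and 5.14 and 4.8% of high-ratio SGCs before thinning. *Egr2*, the regulator of myelin genes, stood at 13.5 and 12.5 against 5.73 and 6.83 CPM (log2 1.05), *Zeb2* at 1034 and 984 against 546 and 504 CPM (log2 0.94), and *Id4*, the member called lower, at 193 and 213 against 301 and 344 CPM (log2 -0.67, and not called within bins of UMI total, *Malat1* share or long-gene share). With cells of any *Pou3f1* UMI left out, 590 genes were called higher and 561 lower.

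Of 25 immediate early and stress genes tested, 10 were called higher and 0 lower, with a median of 0.55. Beside *Atf3* and *Klf4*, the antiproliferative gene *Btg2* stood at 93.9 and 91.2 against 36 and 36.7 CPM (log2 1.35 ± 0.07, adjusted p = 3.44e-07) and *Egr3* at 70.7 and 70.4 against 35.1 and 38.3 CPM (log2 0.94). *Fos*, the most abundant, stood at 1177 and 1347 against 780.2 and 872 CPM (log2 0.61 ± 0.07, adjusted p = 0.00013). Such genes can be induced while tissue is dissociated, and the part of the dissociation in this difference was not tested. Within bins of mitochondrial share 5 were called higher and within bins of UMI total 7, where 534 and 414 of all genes were called higher, against 677. *Fos* lost its call under 9 alternatives, with log2 differences of 0.31, 0.35, 0.48 and 0.52 within bins of mitochondrial share, *Malat1* share, UMI total and long-gene share. Of 18 interferon response genes, 0 were called higher and 1, *Ifitm3*, was called lower (log2 -0.74), with a median of 0.06. *Ifitm3* was not called within bins of *Malat1* share or long-gene share (-0.40).

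Of 8 tested of 10 nuclear retained RNAs, 3 were called higher and 0 lower, with a median of 0.69 and with *Rian* at 6.71 and 17.7 against 3.11 and 4.06 CPM (log2 1.78, and 1.09 without replicate 2). Within bins of long-gene share 1 of them was called, where 342 of all genes were called higher and 493 lower. Of 21 nuclear-encoded genes of the respiratory chain, 0 were called higher and 5 lower, with a median of -0.46. *Cox7c*, a subunit of cytochrome c oxidase, stood at 791 and 784 against 1269 and 1231 CPM (log2 -0.67 ± 0.03, adjusted p = 4.1e-07) and *Cox5a* at 179.9 and 189 against 290.2 and 309.7 CPM (log2 -0.70). Within bins of UMI total, *Malat1* share or long-gene share, 0 of the 21 were called by edgeR, with medians of -0.41, -0.36 and -0.23. Over all genes, 298, 377 and 493 were called lower in these fits.

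The receptor that the study turns to, *Ednrb*, was present in every group. It stood at 1143 and 1099.7 CPM in low-ratio, 986 and 1012 CPM in mid-ratio and 927 and 954 CPM in high-ratio SGCs. The log2 difference from high-ratio SGCs was 0.25 ± 0.04 (adjusted p = 0.000359), past the test and under 1.5-fold. *Ednra* stood at 10.6 and 10.2 against 11.8 and 13.4 CPM (log2 -0.27 ± 0.12, adjusted p = 0.0966), and its sign changed under 3 alternatives. The ligand *Edn1* had 1 and 0 UMIs and *Edn3* 1 and 0 UMIs in all low-ratio SGCs together, while endothelial cells held 110.2 and 130.3 CPM of *Edn1*.

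Markers of other cell types are given as list sums in CPM of the profile totals. The 12 myelinating Schwann markers summed to 1755 and 1713 CPM in low-ratio and 1502 and 1616 CPM in high-ratio SGCs, against 45897 and 49724 CPM in *Ncmap*-gated cells. Of the 12, 3 were called higher (*Pllp*, *Egr2* and *Fa2h*) and 1, *Drp2*, lower (log2 -1.35). *Pllp*, at levels under 5 CPM, differed by 1.08 and was not called within bins of mitochondrial share or without cells that had UMIs of *Pou3f1*. With the *Lgr5* side ranking alone *Pllp* was called lower by edgeR (log2 -0.68, adjusted p = 0.0377). The 10 non-myelinating Schwann markers, with *Csmd1* the most abundant, summed to 7579 and 7913 against 6917 and 7011 CPM, and of 7 tested 3 were called higher (*Sema3e*, *L1cam* and *Chl1*) and 0 lower. The *Scn7a*-gated cells summed to 6690.3 and 8384 CPM of this list, so the list does not separate SGCs from them.

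The 18 neuron markers summed to 92.3 and 151 against 113 and 156 CPM, with *Snap25* (replicate 1) or *Uchl1* (replicate 2) the most abundant in low-ratio SGCs, and of 15 tested 1 was called higher and 2 lower. The gene called higher, *Syt1*, differed by 1.68, by 0.63 without replicate 2 and by 0.31 without the cells of very high UMIs, where it was not called. The 8 fibroblast markers summed to 309 and 319 against 225 and 254 CPM, with *Col1a2* the most abundant, and 27086 and 27588 CPM in fibroblasts. Of 6 tested, *Col3a1* was called higher and *Lum* lower, and *Lum* lost its call under 8 alternatives, among them bins of UMI total. The 8 mural markers summed to 25.9 and 30.5 against 66.2 and 76.8 CPM, and 3 of 4 tested were called lower, *Tagln* (log2 -2.08), *Notch3* and *Pdgfrb* (log2 -1.33), with *Kcnj8* at 0 UMIs in low-ratio and high-ratio SGCs of replicate 2 and *Abcc9* in high-ratio SGCs of replicate 1. The 8 endothelial markers summed to 10.7 and 11.5 against 8.12 and 11.4 CPM and the 10 macrophage markers to 20.2 and 24.3 against 16.4 and 25.6 CPM, led by *Egfl7* and *Cd74* in low-ratio SGCs, and 0 of the 9 tested genes of these 2 lists were called by edgeR. With SGCs of over 2 UMIs of neuron markers left out, 628 genes were called higher and 650 lower, and with SGCs of any UMI of the 6 excluded markers left out 634 and 650.

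Against the mid-ratio SGCs the differences were smaller. Of the 13031 genes, 211 were called higher (1.62%) and 256 lower (1.96%) in low-ratio SGCs, and 2077 (15.9%) passed the adjusted p alone. This comparison shares the low-ratio profiles with the one above, so its values are given beside it and not as further support. *Adam23* differed by 1.83 (adjusted p = 4.21e-06), *Kcna1* by 1.24 and *Nkain2* by 0.86 on the log2 scale. *Rspo1* differed by -1.46, *Aqp4* by -1.39 and *Mt3* by -1.23 (adjusted p = 1.38e-06). Of the cholesterol genes 0 were called higher and 4 lower, of the potassium channels 6 and 0, of the gap junction genes 3 and 0, and of the Notch genes 0 and 4.

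The result depended on which side of the ratio ranked the cells. When SGCs were ranked by the share of *Acsbg1*, *Cnmd*, *Hes5*, *Aldoc* and *Fads2* alone, 713 genes were called higher and 777 lower in the cells with the least of them, and all 30 genes named above were called, with median log2 differences of 1.84 for the 15 higher and -2.05 for the 15 lower. When they were ranked by the share of *Slc35f1*, *Kcnh8*, *Lrrc4c*, *Ncam2* and *Lgr5* alone, 187 were called higher and 128 lower, and 10 of the 15 higher and 9 of the 15 lower genes were called, with medians of 0.78 and -0.65. With both sides in the ratio the medians were 1.76 and -1.78. *Adam23* and *Kcna1* were called under either ranking, and *Aqp4*, *Nrarp*, *Glul*, *Gjc3* and *Zeb2* were not called when the *Lgr5* side ranked alone. *Pou3f1* then had a log2 difference of -0.32, and *Ntm*, *Slc1a2*, *Syt1* and *Pllp* also turned in sign. Of these only *Pllp* was called in the other direction, as lower (log2 -0.68). Under that ranking 0 of the 22 cholesterol genes, 0 of the Notch genes and 0 of the gap junction genes were called by edgeR, while 5 potassium channels and 5 immediate early genes were called higher.

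**Figure D4:**
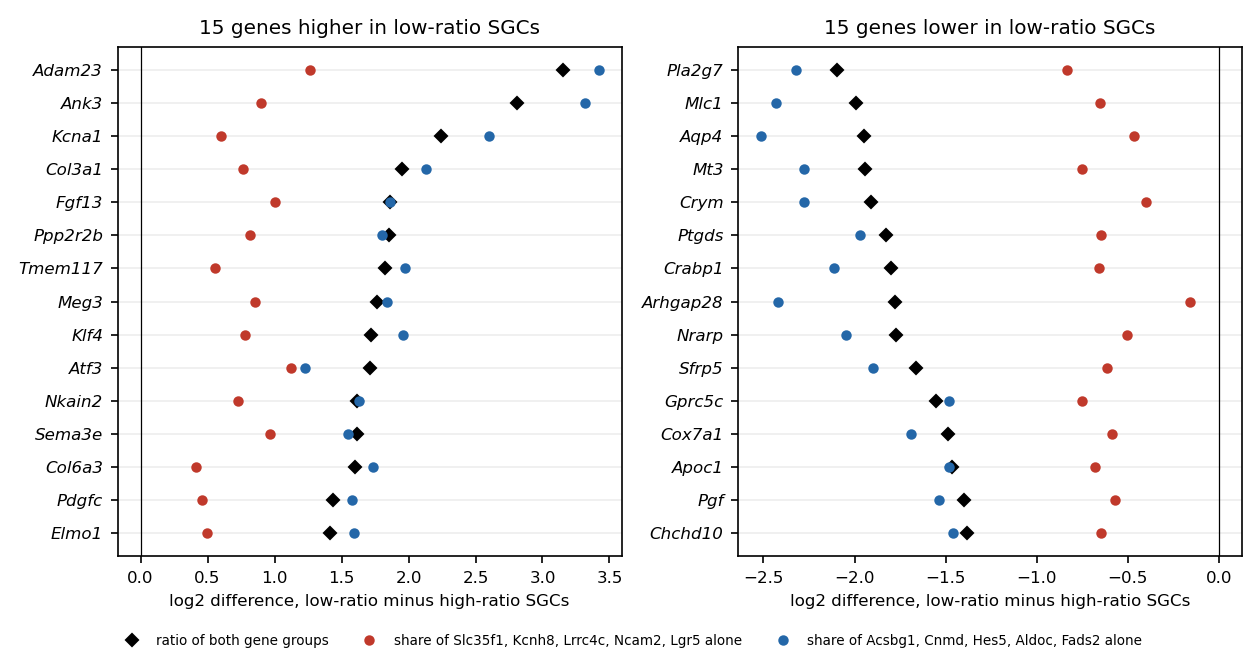
Log2 difference of the 30 named genes between the 2 ends of the ranking, when SGCs were ranked by the ratio (diamonds), by the share of the Lgr5 side alone (red) and by the share of the Acsbg1 side alone (blue). The red points keep the sign and lie nearer 0, at medians of 0.78 and -0.65, than the blue points, at 1.84 and -2.05.

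Gene length moved with the difference. Over 6501 genes of at least 20 CPM, the Spearman correlation between the log2 difference and the annotated span was 0.47, given as a description since genes of 1 profile share depth and RNA. Genes up to 10 kb had a median log2 difference of -0.16 and genes over 300 kb one of 0.30. Of the 288 genes over 300 kb, 17.0% were called higher and 5.21% lower, and of the 1376 up to 10 kb 1.82% and 6.83%. These shares are over the genes of at least 20 CPM and not over all genes tested. For genes of 10 to 30, 30 to 100 and 100 to 300 kb they were 1.03, 3.0 and 8.85% higher and 5.79, 3.19 and 2.01% lower. The ranking genes differ in the same way, from 137 kb (*Lgr5*) to 1313 kb (*Lrrc4c*) on 1 side and from 1.45 kb (*Hes5*) to 57 kb (*Acsbg1*) on the other. With SGCs ranked within bins of long-gene share the correlation was -0.07, as the bins hold that share even, and 342 genes were called higher and 493 lower. Of the 30 named genes, *Adam23*, *Meg3* and *Apoc1* moved by over 1.5 times there, to log2 differences of 2.34, 1.07 and -0.87.

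**Figure D5:**
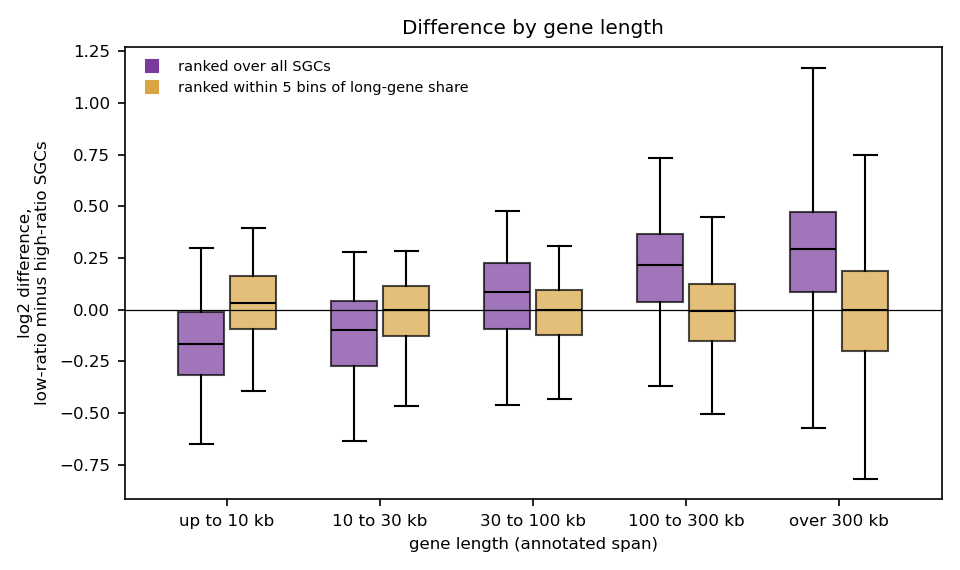
Log2 difference between low-ratio and high-ratio SGCs by length of the annotated gene, for 6501 genes, with SGCs ranked over all cells (purple) or within 5 bins of long-gene share (tan). Boxes span the quartiles with the median as a line, and whiskers reach the 5th and 95th percentiles. Medians rise from -0.16 to 0.30 with length in the first case and stay near 0 in the second.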

How the data were processed

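The authors counted UMIs per gene and barcode with Cell Ranger 7.1.0 on mm10 and deposited these counts for all 1762921 and 1832899 barcodes, of which 9411 and 9925 had over 300 genes, without normalization; whether reads in introns were counted is not given in the sources used here. From the counts, SGCs were gated and ranked as described, with no doublet caller (the study removed mixed clusters, which was not repeated), and UMIs were summed per replicate and group. The 6 profiles entered 1 fit in edgeR 4.0.16 (R 4.3.3; glmQLFit and glmQLFTest, TMM scaling) for the genes that reached 20 UMIs in 2 or more profiles, with Benjamini-Hochberg adjusted p-values. A Wilcoxon test over cells, as used in the study, was not followed, since cells are not replicates. The script was tested on simulated data.

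Members and lists were chosen with earlier results of these data known. Genes are named as the 15 with the largest fold in each direction among called genes with a mean of at least 50 CPM in the higher group, as list members (the largest differences and the most abundant), or as endothelin genes. Predicted genes, 128 of the higher and 51 of the lower calls, are not named, and a few genes of the lists are not reported here. Alternatives were DESeq2 1.42.0, other scalings and filters, other rankings and gates, bins of cell measures, each replicate left out and a replicate block. Subtraction of the RNA of barcodes ranked 45000 to 90000 was added after the data were seen. Groups of the same replicate come from 1 sample, and their deviations from the group means correlated at 0.430 to 0.434, so the replicate number pairs them. The low-ratio profiles of the replicates differed beyond sampling noise (a chi-square of 3.46 for each degree of freedom). Gene spans are from GENCODE M21 (32158 identifiers found and 127 not) and promoters from RefSeq. Summed profiles of 13028797 UMIs or more give each level its precision, and intervals cover counting error only.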

Additional observations from a re-analysis of the deposited data

How the results depend on the processing

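Counts of calls moved by over 1.5 times under several choices, and the cause was not tested. Against high-ratio SGCs, where 677 genes were called higher and 665 lower, the counts were 187 higher and 128 lower with the *Lgr5* side ranking alone, 335 higher and 287 lower with cells thinned before ranking, 414 higher and 298 lower within bins of UMI total, 391 higher and 377 lower within bins of *Malat1* share, 342 higher within bins of long-gene share, and 429 higher and 330 lower with *Fabp7* of at least 100 per 10000. Against mid-ratio SGCs, where 211 and 256 were called, they were 20 and 7 with the *Lgr5* side alone, 55 and 42 with thinning before ranking, 105 and 146 with cells thinned before the sum, 63 and 56, 73 and 114 and 63 and 140 within bins of UMI total, *Malat1* share and long-gene share, 129 and 107 with the stricter *Fabp7* limit, and 345 higher with no filter on low counts. With 1 replicate left out no test was possible, and 961 to 982 genes were past 1.5-fold higher and 868 to 940 lower against high-ratio SGCs, and 513 to 562 and 556 to 561 against mid-ratio SGCs. DESeq2 called 504 higher and 552 lower. The 3 groups of a replicate come from the same sample, and with the replicate block 794 genes were called higher and 738 lower, and no named gene lost its call.

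Of 103 genes compared across settings, 97 were called and 30 stayed called under every setting that tested them. Not every gene was tested in every setting, for example with cells thinned before the sum. Signs reversed with the *Lgr5* side ranking alone for *Ednra* (0.12), *Ntm* (0.24), *Slc1a2* (0.18), *Pou3f1* (-0.32), *Syt1* (-0.15) and *Pllp* (-0.68), and 62 others lost their call. Among the reversed genes only *Pllp* was called, as lower. *Ednra* was at 0.027 with cells thinned before the sum and at 0.087 with the stricter *Fabp7* limit. Between 19 and 30 genes lost their call with thinning before ranking, the stricter *Fabp7* limit or bins of UMI total, *Malat1* share or long-gene share. Low-ratio SGCs had the fewest UMIs, and the part of depth in these losses was not tested.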

Other observations

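Low-ratio SGCs with UMIs of *Pou3f1* also had other levels of *Kcna1* and *Nkain2*. In replicates 1 and 2, 793 and 802 low-ratio SGCs had 0 UMIs of *Pou3f1*, 119 and 120 had 1 or 2, and 41 and 36 had 3 or more. Over these subsets, *Kcna1* stood at 132 and 123, 193 and 192 and 193 and 259 CPM. *Nkain2* stood at 1824 and 1805, 2633 and 2433 and 2998 and 2943 CPM. *Fabp7*, on which the gate rests, stood at 10031 and 10287 CPM with 0 UMIs of *Pou3f1* and at 7652 and 8157 CPM with 3 or more. The subsets were formed on a measured gene and were not tested.

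Many low-ratio SGCs lay near the gate on *Fabp7*. In low-ratio SGCs, 17.4 and 15.6% of cells had 50 to 60 UMIs of *Fabp7* per 10000, against 7.97 and 6.99% of mid-ratio and 3.57 and 3.44% of high-ratio SGCs.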
